A study of Mus musculus with 87 samples.

Results

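The Hox genes of paralog groups 4 and 5 in these data are Hoxa4, Hoxb4, Hoxc4, Hoxd4, Hoxa5, Hoxb5 and Hoxc5. They were chosen by name, and all 7 were found among the 26171 gene symbols of each of 13 RNA-seq comparison tables, which hold 39 Hox protein genes in all. The series compared mouse cells that differ in the splice isoforms of the PRC2 subunit Suz12 (PRC2 is a Polycomb complex that represses genes). It holds 87 samples, of which 32 are polyA RNA-seq and 55 are ChIP-seq. All RNA-seq samples came from the 129-B13 cell line.

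Embryonic stem cells (ESC) were kept in 20% serum with LIF. In ESC, 3 samples were wild type (WT) and 3 were the full Suz12 knock-out (KO). Constitutive inclusion of exon 4 (CSex4) and deletion of that exon (Deltaex4) had 2 samples each. The knock-out was also studied with a rescue by the long isoform (KO-L, 2) or the short isoform (KO-S, 2). In KO-L3D and KO-S3D (2 samples each) the rescuing isoform, placed in the Rosa26 locus, carried the 3D mutation at position 196. Neuronal precursors (NP) were derived from ESC through embryoid bodies that received retinoic acid on day 4 and were harvested on day 8. NP had 4 WT samples, and 2 each of the knock-out, its 2 rescues without the mutation, and both exon 4 alleles. The labels do not say whether replicates of a group came from separate clones or separate cultures, so p-values measure only the spread between these samples, which may be technical.

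Hox genes encode homeodomain transcription factors that give cells their position along the head-to-tail axis, and the 4 mammalian clusters (a, b, c and d) hold them in the order in which they are used. Genes of paralog groups 4 and 5 mark the posterior hindbrain and the anterior spinal cord, and retinoic acid switches on genes of this part of the clusters early. In stem cells the clusters are textbook targets of PRC2, whose methylation of histone H3 at lysine 27 (H3K27me3) is associated with silence. The 7 genes fall into 2 genes each in clusters a, b and c (groups 4 and 5) and 1 in cluster d, where group 5 has no member.

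The promoters are shown because the comparisons concern a repressor that occupies these clusters and precursors made with retinoic acid. Of the 7 genes, 4 had an entry among 32851 RefSeq promoters (GRCm38.p6), and the 250 bases before the start site are given 5′ to 3′ in the direction of the gene. For Hoxc4 the promoter entry belongs to a start site inside the annotated span of the gene (chromosome 15, 103018097 to 103036856), not to the start of that span. Capitals mark 2 kinds of match: TGACCT, the reverse complement of AGGTCA, which is the half-site that retinoic acid receptors bind, and TTGCCATAATGG, a run of letters shared by Hoxa5 and Hoxc4.
Hoxb4 (chr11:96318017-96318266, plus strand): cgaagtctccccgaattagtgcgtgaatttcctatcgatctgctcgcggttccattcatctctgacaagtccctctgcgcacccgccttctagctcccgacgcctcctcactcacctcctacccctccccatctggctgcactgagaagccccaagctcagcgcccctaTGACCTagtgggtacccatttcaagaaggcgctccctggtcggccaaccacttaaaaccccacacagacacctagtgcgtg
Hoxc4 (chr15:103034145-103034394, plus strand): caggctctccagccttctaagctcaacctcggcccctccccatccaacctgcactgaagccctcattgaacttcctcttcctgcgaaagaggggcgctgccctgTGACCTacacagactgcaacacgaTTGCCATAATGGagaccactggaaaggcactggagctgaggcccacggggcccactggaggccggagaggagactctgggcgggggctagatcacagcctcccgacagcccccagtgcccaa
Hoxd4 (chr2:74721728-74721977, plus strand): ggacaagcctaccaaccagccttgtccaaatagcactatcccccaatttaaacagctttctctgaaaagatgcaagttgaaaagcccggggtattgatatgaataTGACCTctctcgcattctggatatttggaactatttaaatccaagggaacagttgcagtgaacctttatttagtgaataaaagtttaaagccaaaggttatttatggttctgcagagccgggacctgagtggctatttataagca
Hoxa5 (chr6:52204588-52204837, minus strand): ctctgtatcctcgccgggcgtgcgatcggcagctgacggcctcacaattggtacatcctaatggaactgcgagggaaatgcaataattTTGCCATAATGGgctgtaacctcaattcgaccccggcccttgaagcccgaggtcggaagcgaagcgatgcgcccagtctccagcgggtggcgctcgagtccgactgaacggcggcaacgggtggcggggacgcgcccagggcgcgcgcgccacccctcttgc
AGGTCA was searched on both strands and occurred in Hoxb4, Hoxc4 and Hoxd4, 3 of the 4 windows, and in 14.0% of all promoter windows of this length. TTGCCATAATGG was chosen after the sequences were compared, and of the 32851 promoters 2 hold it, those of Hoxa5 and Hoxc4. A match is a description of letters and not evidence that a factor binds. The 4 windows also differed in composition: the Hoxa5 window held 28 CpG dinucleotides, Hoxb4 14, Hoxc4 8 and Hoxd4 3, against a median of 6 over all promoters.

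The deposited tables hold 1 mean per gene over the libraries of a comparison, and whole reads per library were solved jointly from the means of all tables of a cell type. For the 7 genes each ESC table alone allowed 1 solution, the joint one. In NP, 8 of the gene and table pairs were also solved alone: 4 of them allowed 1 solution and 4 allowed between 2 and 4, always with the joint one among them. Reads are estimates in this sense for the 7 genes in all 32 libraries, and are given below as normalised reads, that is, reads divided by the size factor of the library, on 1 scale for ESC and a separate one for NP. Levels of ESC and NP were therefore not compared, and neither were levels of different genes, which differ in length. Libraries are lettered within a group, and a letter is not a replicate number. Reads per library were solved only for the 7 genes, Suz12 and the gene lists used below. The share of all genes whose libraries separate between groups is thus not known. Counts of genes without overlap are descriptions for that reason. The sum of the deposited means over all genes lay between 26085140 and 31499803 per library in the 13 tables. The targeted gene followed its label: Suz12 gave 1626, 2510 and 1218 normalised reads in the ESC KO libraries against 4410, 5733 and 8588 in WT, and 1196 and 1247 in NP KO against 3111 to 5736 in the 4 NP WT libraries. Strand was not given in the sources used here, so reads of Hoxb5 and of its annotated antisense neighbour Hoxb5os, or of Hoxa5 and Hoxaas3, cannot be told apart. The annotated spans of Hoxa4, Hoxb4, Hoxd4 and Hoxa5 also overlap that of the paralog group 3 gene of their cluster.

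In ESC, the 7 genes were close to silent in WT, and 5 of them were called higher without Suz12. Hoxc4, which gave 3.73, 1.93 and 3.26 normalised reads in the 3 WT libraries, gave 91.6, 72.8 and 93.8 in the KO. The KO libraries lay far above the WT libraries, with no overlap. In the authors' deposited table the log2 fold change of Hoxc4 was 4.86 ± 0.69 (SE; DESeq2 adjusted p = 1.51e-10). The change was called for 5 of the 6 genes that have an adjusted p, all higher, where 11.0% of all genes tested in that comparison were called higher.

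Among the other group 4 genes, Hoxb4 gave 48.4, 25.2 and 53.5 normalised reads in the ESC KO against 0, 3.86 and 13 in WT. Hoxd4 gave 29.4, 9.71 and 42.4 against 0, 0 and 3.26. Both sets of KO libraries were above every WT library. The log2 fold changes in the authors' deposited table were 3.56 ± 1.01 for Hoxb4 (adjusted p = 0.00468) and 5.27 ± 1.48 for Hoxd4 (adjusted p = 0.00409). Hoxa4 gave 18.2, 7.77 and 12.1 against 0, 1.93 and 2.17, again without overlap. Its log2 fold change of 3.32 ± 1.39 missed the threshold of 0.05 in the authors' deposited table (adjusted p = 0.0777).

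Of the group 5 genes, Hoxa5 gave 14.7, 33.0 and 25.2 normalised reads in the ESC KO against 6.52, 0.966 and 1.09 in WT. Hoxc5 gave 13.8, 22.3 and 17.1 against 1.86, 0 and 0. Neither gene's KO and WT libraries overlapped, and the authors' deposited table called both higher, with log2 fold changes of 3.38 ± 1.09 (adjusted p = 0.015) and 5.10 ± 1.52 (adjusted p = 0.00775). Hoxb5 was the exception, with 11.2, 0.971 and 1.01 normalised reads in the KO and 0, 2.90 and 0 in WT. Its libraries overlapped, a single KO library held most of its reads, and the authors' deposited table gives it no adjusted p (unadjusted p = 0.325). WT libraries held 2 reads of Hoxc5, 3 of Hoxd4 and 3 of Hoxb5 in all, so the sizes of those fold changes are poorly fixed at this depth. Markers of other cell types moved with the KO as well: the summed mesoderm markers (T, Eomes and Hand1) ran from 603 to 1089 in the KO and from 122 to 204 in WT, and all 3 were called higher in the authors' deposited table. No mesoderm marker was at 0 in either group, and the part of such cells in the Hox reads was not tested. In bulk samples, fewer cells of a type and less RNA per cell cannot be told apart.

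**Figure D1:**
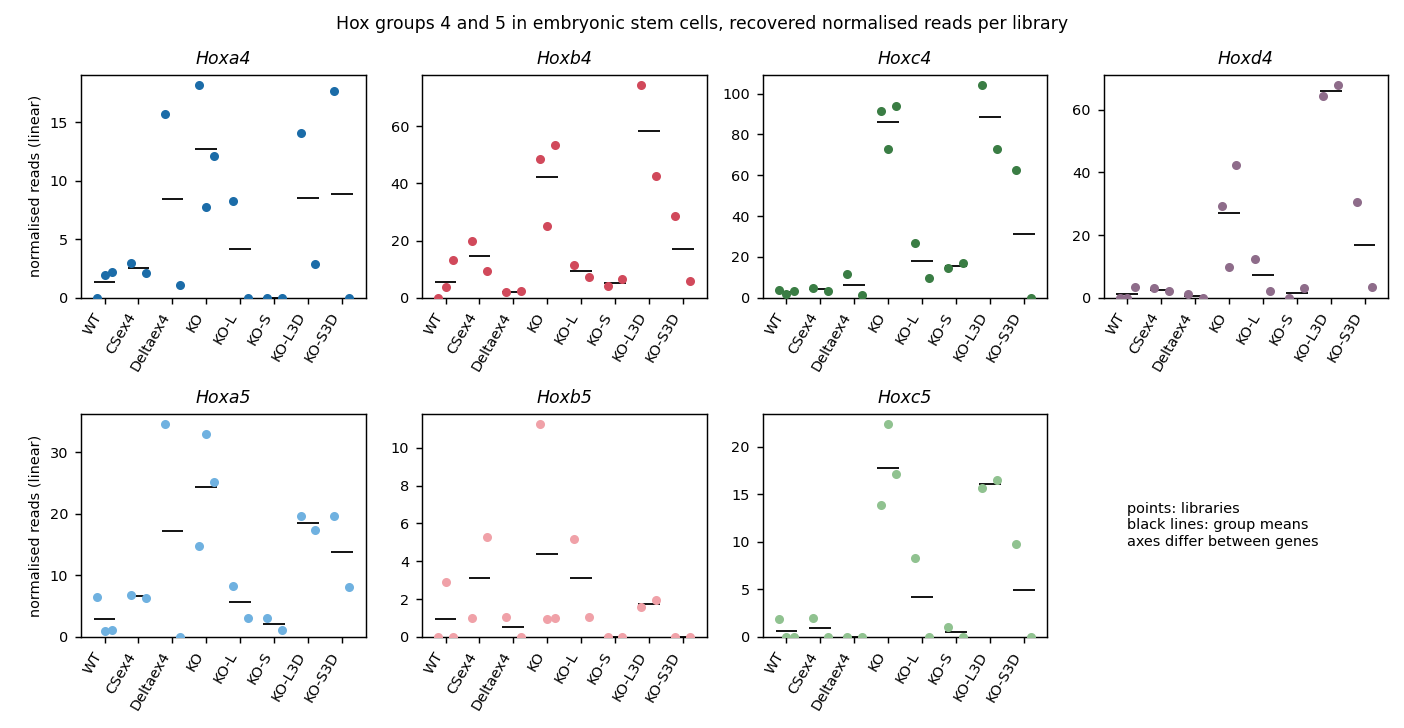
Normalised reads of each of the 7 genes (vertical axes, linear, different for each gene) in the 18 ESC libraries, by group (horizontal axis). Points are libraries and black lines are group means; Hoxc4 sits between 72.8 and 93.8 in KO and under 3.8 in WT, and the 2 KO-S3D libraries stand far apart.

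The 7 genes were low in ESC with the rescue by the short isoform: every KO-S library was below every KO library for all 7 genes. For Hoxb5 this rests on 0 reads in both KO-S libraries against 13, 1 and 1 in the KO. The KO libraries of Hoxb5 overlapped WT, so it had no clear rise to begin with. Hoxc4 gave 14.3 and 17.1 normalised reads in KO-S, below the KO yet above the WT libraries. With the long isoform 4 of the 7 genes were below the KO in both libraries. The 2 KO-L libraries differed, and their summed levels over the 7 genes were 80.9 and 23.0. In the first KO-L library 6 genes exceeded all WT libraries, and 1 did in the second. In the authors' deposited tables no gene of the 7 was called in either rescue against WT, where 2.23% (KO-L) and 7.91% (KO-S) of all genes were called in either direction. None of the 7 has an adjusted p there, so none could be called. No unadjusted p of the authors' DESeq2 test was under 0.05, the lowest being 0.147 (KO-L) and 0.141 (KO-S), both for Hoxc4. With so few reads, this does not show that either rescue equals WT. The difference between the rescues could not be tested for any of the 7 genes, since none reached a mean of 10 normalised reads in both tables.

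The long isoform with the 3D mutation stood beside the KO rather than beside WT. In KO-L3D, Hoxd4 gave 64.2 and 67.8 normalised reads, above all 3 KO libraries. Hoxc4 gave 104 and 72.7, which overlaps the KO range. Hoxb4 gave 74.4 and 42.6, and this too overlaps the KO. The authors' deposited table called 2 of the 4 genes that have an adjusted p, both higher: Hoxc4 (log2 fold change 5.09 ± 1.11, adjusted p = 0.000137) and Hoxd4 (5.77 ± 1.46, adjusted p = 0.0013). Across all genes 8.22% were called higher in that comparison. Hoxb4 (adjusted p = 0.0622) and Hoxa5 (adjusted p = 0.125) missed the threshold in the authors' deposited table, although both KO-L3D libraries lay above every WT library for these and in all for 6 of the 7 genes. In this and the other ESC comparisons with 2 libraries on 1 side, 1 of the 3 WT libraries carried no weight in the authors' effect. Suz12 itself gave 1548 and 2464 normalised reads in KO-L3D, within the KO range of 1218 to 2510, where KO-L gave 3182 and 3594, and the part of this level was not tested. In KO-L3D the mesoderm marker Hand1 gave 5246 and 1261 normalised reads against 22.8 to 66.6 in WT, and the part of such cells was not tested. The difference between KO-L and KO-L3D could not be tested for any of the 7 genes.

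KO-S3D split into 2 unlike libraries. One gave 62.8 normalised reads of Hoxc4, 30.4 of Hoxd4, 28.4 of Hoxb4 and 19.6 of Hoxa5. The other gave 0, 3.48, 5.80 and 8.11. The first library was near or within the KO range for these genes and the second at or near the WT range, and summed over the 7 genes they gave 169 and 17.4. Suz12 itself differed between them, with 4697 normalised reads in the first and 9617 in the second, and Hand1 gave 5107 and 66.1. Their part in the split was not tested. No gene of the 7 has an adjusted p in the authors' deposited table of KO-S3D against WT, and none has an unadjusted p under 0.05, where 3.23% of all genes were called.

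Neither exon 4 allele had a called change among the 7 genes in ESC. In CSex4 the highest value was 19.7 normalised reads of Hoxb4, with 9.50 in the other library, against 0, 3.86 and 13 in WT. All 7 genes overlapped between CSex4 and WT. Deltaex4 again had unlike libraries: Hoxa5 gave 34.5 and 0 normalised reads, Hoxa4 15.7 and 1.09, and Hoxc4 11.5 and 1.09. The first Deltaex4 library was thus above all 3 KO libraries for Hoxa5 and within the KO range of 7.77 to 18.2 for Hoxa4, and the second was within or below the WT range for both. Summed over the 7 genes the libraries held 63 and 4 reads. Suz12 itself gave 2154 normalised reads in the first Deltaex4 library and 3864 in the second. WT gave 4410 to 8588 and the KO 1218 to 2510. The part of this level was not tested. With CSex4 none of the 7 genes has an adjusted p in the authors' deposited table, so none could be called there. With Deltaex4 all 7 have one in the authors' deposited table, and none was called. No gene of the 7 had an unadjusted p under 0.05 in either comparison. Of all genes, 2.41% were called with CSex4 and 0.0% with Deltaex4.

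In NP, where retinoic acid had been given, the same genes were abundant in WT and fell without Suz12. Hoxd4 fell furthest. It gave 188.5 and 77.1 normalised reads in the 2 NP KO libraries and 1639, 5675, 4249 and 6292 in the 4 WT libraries. The KO libraries were below every WT library by a wide margin. The log2 fold change in the authors' deposited table was -4.67 ± 0.37 against the first pair of WT libraries (adjusted p = 2.66e-34). A second table compares a second pair of WT libraries with the same 2 KO libraries, and there the log2 difference, WT over KO, was 5.39 ± 0.38 (adjusted p = 2.18e-42). All 7 genes were called lower in the KO in both of the authors' deposited tables, where 9.85% (first pair) and 15.6% (second pair) of all genes were called in that direction. The 2 tables share the KO libraries.

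Hoxc5 was the other gene with a drop of that order. Its NP KO libraries gave 147 and 202 normalised reads, and its WT libraries 3719, 3940, 3312 and 3597. The authors' deposited tables give -4.47 ± 0.36 (adjusted p = 1.55e-32) for KO over WT and 4.32 ± 0.29 (adjusted p = 1.24e-47) for WT over KO on the log2 scale. The smallest deposited drops belonged to the 2 genes of cluster a and Hoxb4. Hoxa5 gave 1052 and 1175 in the KO against 2850, 6273, 5717 and 6861 in WT, a log2 fold change of -1.93 ± 0.39 in the authors' deposited table (adjusted p = 1.78e-05). Hoxa4 gave 318 and 450 against 1481, 2186, 2307 and 2470. Hoxb4 gave 580 and 519 against 1761, 3604, 3379 and 4159. For these genes too, both KO libraries lay below every WT library. Hoxb5 gave 426.5 and 404 against 2035, 5566, 4886 and 6840, and Hoxc4 gave 387 and 511 against 2277, 4613, 3549 and 4333. In both genes every KO library was below every WT library.

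One NP WT library stood apart. WT a was the lowest of the 4 for 6 of the 7 genes, and the mean of the other 3 was 3.30 times higher for Hoxd4, 2.83 times for Hoxb5 and 1.57 times for Hoxa4. Hoxc5 was the exception, with 3719 in WT a and 3312 to 3940 in the others. WT a also held more Pou5f1, a pluripotency factor (2014 normalised reads against 199 to 762), and less Tubb3, a tubulin of neurons (2865 against 10190 to 13630). Since WT a is 1 of the 2 WT libraries in the CSex4, Deltaex4 and first KO tables, those comparisons are also given below without it. The fall in the KO was present without it: the recovered log2 ratio of KO to the other 3 WT libraries lay between -2.50 (Hoxa5) and -5.34 (Hoxd4), and the second pair of WT libraries does not contain WT a.

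**Figure D2:**
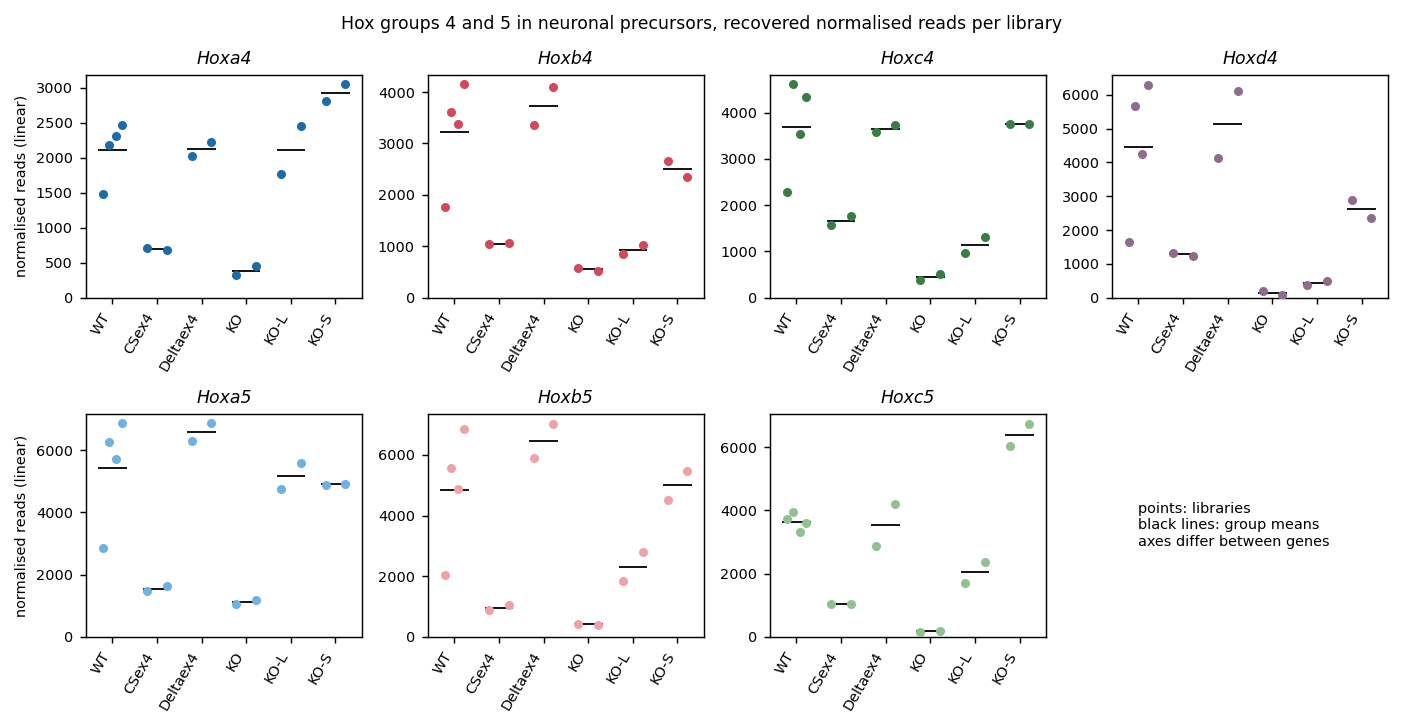
Normalised reads of each of the 7 genes (vertical axes, linear, different for each gene) in the 14 NP libraries, by group (horizontal axis). Points are libraries and black lines are group means; KO and CSex4 libraries lie below every WT library for all 7 genes, and the lowest WT point is WT a except for Hoxc5.

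NP with constitutive exon 4 also had lower levels of the 7 genes. Hoxc5 gave 1053 and 1043 normalised reads in CSex4 against 3312 to 3940 in WT, and Hoxb5 gave 895 and 1040 against 2035 to 6840. For all 7 genes both CSex4 libraries were below all 4 WT libraries, and above both KO libraries. The share of all genes that separate in this way is not known. The authors' deposited table called 6 of the 7 lower, where 1.45% of all genes were called lower. The fall was largest for Hoxc5 (log2 fold change -1.87 ± 0.31, adjusted p = 2.93e-07) and Hoxb5 (-1.80 ± 0.40, adjusted p = 0.000416) in the authors' deposited table. Hoxa5, at -1.45 ± 0.37 (adjusted p = 0.00313), and Hoxa4, at -1.36 ± 0.34 (adjusted p = 0.00216), followed there. Hoxb4 (-1.26 ± 0.36, adjusted p = 0.013) and Hoxd4 (-1.25 ± 0.41, adjusted p = 0.04) were also called in the authors' deposited table. Hoxc4 gave 1575 and 1758 normalised reads in CSex4 against 2277 to 4613 in WT, and its log2 fold change of -0.96 ± 0.36 missed the threshold in the authors' deposited table (adjusted p = 0.106). Against the 3 WT libraries other than WT a, the recovered log2 ratios were larger for 6 genes, from -1.32 (Hoxc4) to -2.57 (Hoxb5), and Hoxc5 stayed at -1.79. The 2 CSex4 libraries were much alike, with a mean chi-square per gene of 2.37 where other pairs of a group had 7.79 or more. By the median per gene it was 1.47, and the ESC KO-S pair was lower at 0.784. They still differed by more than counting noise and were kept as 2 samples. Suz12 itself gave 8432 and 9052 normalised reads in NP CSex4, above the 3111 to 5736 of the 4 WT libraries. Its log2 fold change of 0.70 ± 0.30 was not called in the authors' deposited table (adjusted p = 0.193). The part of this level was not tested.

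NP with exon 4 deleted overlapped WT for all 7 genes. Hoxa5 gave 6307 and 6874 normalised reads in Deltaex4 and Hoxb5 gave 5904 and 7021, within or just above the span of the 4 WT libraries. The other 5 genes overlapped WT as well. No gene was called in the authors' deposited table, where 0.0809% of all genes were called. The smallest unadjusted p was 0.0141, for Hoxb5 (log2 fold change 0.94 ± 0.38), and it was the one value of the 7 under 0.05 in the authors' deposited table. Without WT a the recovered log2 ratio of Hoxb5 shrank to 0.17 and that of Hoxd4, 0.72 ± 0.39 in the authors' deposited table, went to -0.08.

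The exon 4 alleles were also set against each other in NP. All 7 genes were lower in both CSex4 libraries than in either Deltaex4 library, and the means in CSex4 were between 15% (Hoxb5) and 45.7% (Hoxc4) of those in Deltaex4. The difference of the deposited log2 fold changes, Deltaex4 minus CSex4, was called for 6 of the 7 genes, while 1.78% of all genes tested were called. At an adjusted p under 0.01 in place of 0.05 the count was 2. It was largest for Hoxb5, at 2.74 (95% interval 1.65 to 3.83, adjusted p = 0.000186 by a normal test of the difference over all genes), and Hoxa5, at 2.09 (1.08 to 3.10, adjusted p = 0.00635). Hoxc4, at 1.13 (0.129 to 2.14, adjusted p = 0.35), was not called. These comparisons share the WT libraries, whose variance is then counted in both tables.

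Both isoform rescues had more reads of the 7 genes than the KO in NP, and the mean with the short isoform was above that with the long one for 6 of them, all but Hoxa5. All 7 were called higher than KO in the authors' deposited table of each rescue, where 10.9% (KO-L) and 16.4% (KO-S) of all genes were called higher. Hoxc5 rose furthest: it gave 1713 and 2375 normalised reads with the long isoform and 6028 and 6726 with the short one, against 147 and 202 in the KO. In the authors' deposited tables its log2 fold changes were 3.55 ± 0.24 (adjusted p = 8.94e-46) and 5.20 ± 0.19 (adjusted p = 5.49e-163). Hoxd4 gave 363 and 482 normalised reads in KO-L and 2879 and 2359 in KO-S, against 188.5 and 77.1 in the KO. Its KO-L libraries remained at a mean of 9.46% of the mean of the 4 WT libraries. Hoxb4 had the smallest rise with the long isoform, to 845 and 1028 normalised reads from 580 and 519 (log2 fold change 0.76 ± 0.27, adjusted p = 0.0196, in the authors' deposited table), while KO-S gave 2666 and 2357.

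The difference between the rescues, KO-S minus KO-L, was called for 5 of the 7 genes, all higher with the short isoform, where 10.3% of all genes tested were called. It was 2.63 for Hoxd4 (95% interval 1.63 to 3.62, adjusted p = 1.12e-05), 1.74 for Hoxc4 (1.12 to 2.37, adjusted p = 2.77e-06) and 1.66 for Hoxc5 (1.05 to 2.26, adjusted p = 4.41e-06), by the same normal test on the log2 scale. Hoxb4 followed with 1.43 (0.785 to 2.07, adjusted p = 0.000411) and Hoxb5 with 1.13 (0.526 to 1.74, adjusted p = 0.0048). The 2 genes of cluster a were not called. Hoxa5 gave 4761 and 5578 normalised reads in KO-L and 4890 and 4911 in KO-S, a log2 difference of -0.07 (-0.584 to 0.439, adjusted p = 0.937). Hoxa4 gave 1771 and 2446 against 2809 and 3050, a log2 difference of 0.49 (-0.109 to 1.09, adjusted p = 0.389). The rescue comparisons share the KO libraries.

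No table compares a rescue with WT in NP, and the levels give only a description. In KO-L, 4 genes (Hoxb4, Hoxc4, Hoxd4 and Hoxc5) were below all 4 WT libraries, and Hoxa4 and Hoxa5 lay within the WT span, with means at 99.9% and 95.3% of the WT mean. Without WT a, 6 genes were below WT, all but Hoxa4. In KO-S, Hoxa4 and Hoxc5 exceeded all 4 WT libraries, with means of 139% and 175% of WT, and the other 5 lay within the WT span. Without WT a, Hoxb4, Hoxd4 and Hoxa5 fell below the remaining 3 WT libraries in KO-S, and Hoxd4 was at 48.5% of their mean.

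**Figure D3:**
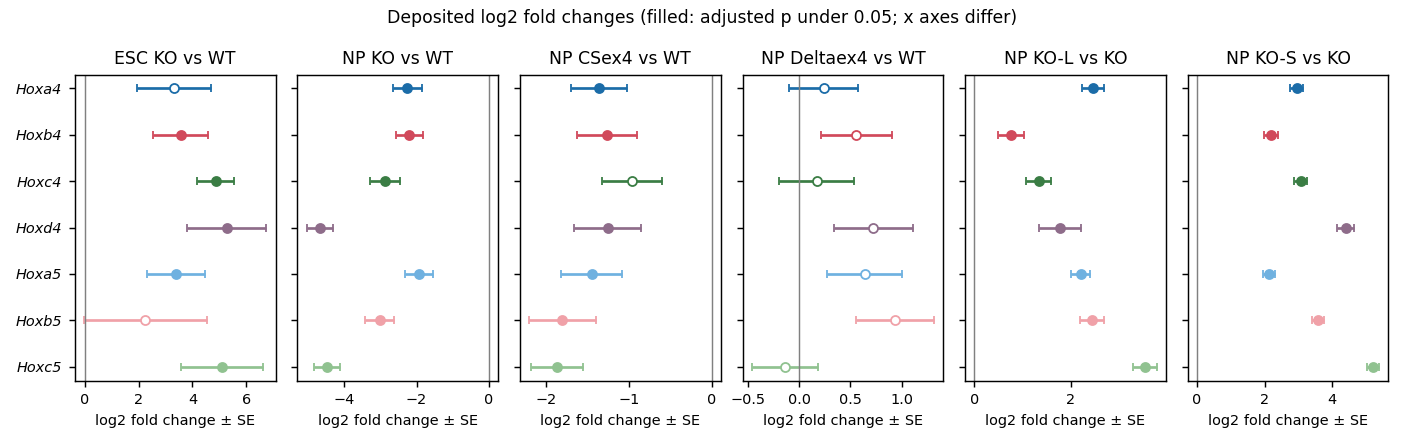
Log2 fold changes from the authors' deposited tables (horizontal axes, different for each of 6 comparisons) for the 7 genes (vertical axis), with bars of 1 SE. Filled points have an adjusted p under 0.05; the ESC and NP knock-out panels lie on opposite sides of 0, and Hoxb4 has the smallest rise in NP KO-L.

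Ordered by mean level in NP, the KO was lowest for all 7 genes, and its libraries did not overlap those of the group next above it. CSex4 came next for Hoxa4, Hoxa5, Hoxb5 and Hoxc5, and KO-L for Hoxb4, Hoxc4 and Hoxd4. WT overlapped Deltaex4 for all 7 genes, and their order is therefore not fixed by these libraries. At the top stood Deltaex4 for Hoxb4, Hoxd4, Hoxa5 and Hoxb5, and KO-S for Hoxa4, Hoxc4 and Hoxc5. The lead of KO-S was free of overlap with the next group for Hoxa4 and Hoxc5 and not for Hoxc4, whose values were 3759 and 3758 in KO-S and 2277 to 4613 in WT.

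Cell type markers differed between the NP groups too, though not always in step with the levels of the 7 genes. In CSex4, the summed pluripotent markers (6 genes) were 35200 and 35990 against 5856 to 12500 in WT, with 4 of 6 called higher in the authors' deposited table. In KO-L they were 25210 and 17240. In the KO, the group lowest in the 7 genes, they were 9652 and 3585, within or below the WT span. That sum joins markers that moved in opposite directions. Against the first WT pair, 1 of the 6 was called higher and 1 lower in the KO in the authors' deposited table. Against the second pair, 4 were called higher in the KO and 1 lower there. Pou5f1 gave 2693 and 502 normalised reads in the KO against 199 to 2014 in WT. The 5 neural progenitor markers summed to 5277 and 5061 in CSex4 against 7800 to 20350 in WT, with 3 of 5 called lower in the authors' deposited table. The KO had the fewest reads of neural genes: the 5 neural progenitor markers summed to 2514 and 2799 against 7800 to 20350 in WT, and the 3 neuron markers to 911 and 1041 against 5635 to 29010. In the KO libraries, 2 and 1 reads of Hes5 were found, a target of Notch signals in neural progenitors. The 4 endoderm markers summed to 8560 and 16020 in the KO against 1854 to 6902 in WT. The 3 trophoblast markers summed to 25620 and 28320 in the KO and to 18670 and 22240 in KO-S, against 4407 to 10700 in WT, and all 3 were called higher in the KO in the authors' deposited table. Krt8 made up most of the WT sums, with 9844 of the 10700 normalised reads in WT a, against 165 of Cdx2 and 691.5 of Gata3. In KO-S all 3 were called lower than in the KO in the authors' deposited table. The single markers in KO-S were not set against WT. The 3 mesoderm markers summed to between 1201 and 1250 in CSex4 against 75.6 to 305.2 in WT, with 2 of 3 called higher in the authors' deposited table. In KO-S the neuron markers stood at 6004 and 7927 while the pluripotent markers were at 6803 and 5743. None of the 24 markers was at 0 in any NP group. The part of these shifts in the levels of the 7 genes was not tested.

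**Figure D4:**
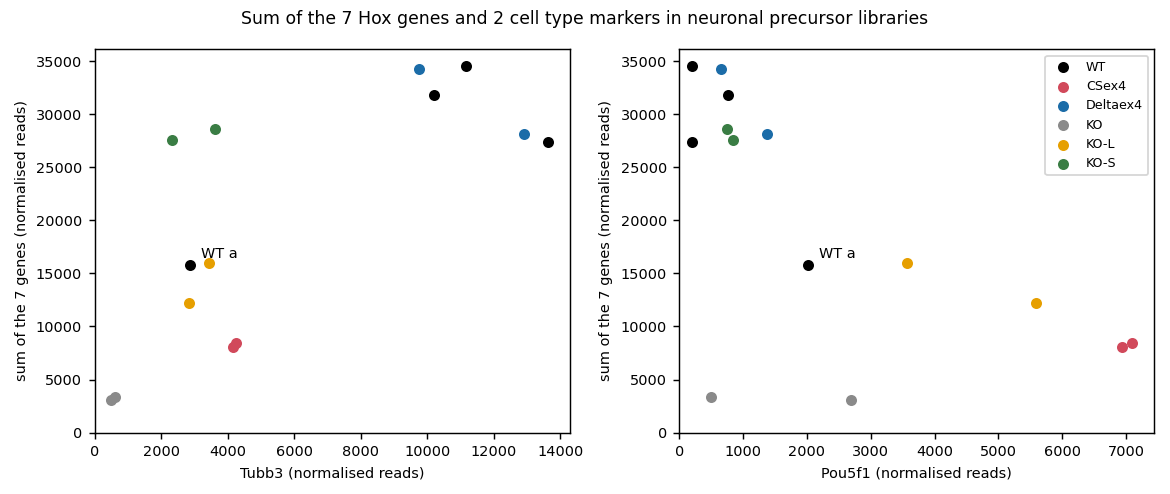
Summed normalised reads of the 7 genes (vertical axes) against Tubb3 (left) and Pou5f1 (right), in normalised reads, for the 14 NP libraries; each point is a library and colours are groups. KO-S libraries hold 27550 and 28640 reads of the 7 genes with 2327 and 3617 of Tubb3, and WT a lies next to the KO-L libraries on the left and below them in Pou5f1 on the right (2014 against 5594 and 3564).

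The knock-out thus had opposite signs in the 2 cell states for the 5 genes called in both, Hoxb4, Hoxc4, Hoxd4, Hoxa5 and Hoxc5. Hoxa4 and Hoxb5 had no called rise in ESC. The difference between the effects, NP minus ESC, could be tested for the 4 genes with a mean of at least 10 normalised reads in both tables, and it was called for all 4, where 14.3% of all genes tested were called. On the log2 scale it was -5.76 for Hoxb4 (95% interval -7.88 to -3.64), -7.73 for Hoxc4 (-9.30 to -6.15), -9.94 for Hoxd4 (-12.9 to -6.95) and -5.31 for Hoxa5 (-7.57 to -3.04). These comparisons share no library. Hoxa4, Hoxb5 and Hoxc5 were below that mean in ESC and were not tested. The 4 tested genes reached it in ESC only through the KO libraries. Their ESC means were 1.09 to 5.63 in WT and 24.3 to 86.1 in the KO. A gene as low in WT and without a rise in the KO could not enter. The count of 4 therefore cannot be weighed against the 14.3%. None of the 7 genes could be tested for a difference between ESC and NP in the effect of CSex4 or of Deltaex4.

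ChIP-seq enters as 2 lists of regions from DiffBind, read against GRCm38.p6. The labels do not say which groups were contrasted or in which direction a region changed, so a listed region marks a place and not a gain or loss. Like all 32 other Hox genes, every one of the 7 genes lay at a Suz12 region (the share of all genes was not counted). Of these regions, 3 were the widest of the 2865 listed: 69311 bases over Hoxc5 (chromosome 15, 102948309 to 103017619), 67241 bases over Hoxb4 and Hoxb5 (chromosome 11, 96267834 to 96335074), and 58789 bases over Hoxa5 (chromosome 6, 52196592 to 52255380). Hoxa4 had a region of its own of 6654 bases (chromosome 6, 52188704 to 52195357), and Hoxd4 one of 7777 bases (chromosome 2, 74722021 to 74729797). Hoxc4 was covered for 45.8% of that whole annotated span, by regions of 4039 and 4618 bases. Of the printed promoter windows, those of Hoxa5, Hoxb4 and Hoxc4 lay wholly inside Suz12 regions, and that of Hoxd4 held 0 bases of one, since the region over Hoxd4 starts past the window.

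The H3K27me3 list covered 5 of the 7 genes. Hoxa4 and Hoxa5 lay in the widest of its 6882 regions, of 119430 bases (chromosome 6, 52159116 to 52278545). Hoxd4 lay in a region of 38338 bases that ranked 3 by the authors' value. Hoxb5 was covered whole and Hoxb4 for 94.9% of its length. Hoxc4 and Hoxc5 had no H3K27me3 region in the list used here, and the nearest one was 17919 and 37346 bases away. The printed windows of Hoxa5, Hoxb4 and Hoxd4 lay wholly in listed H3K27me3 regions and that of Hoxc4 lay in none. Among the other 32 Hox genes 29 had a listed region within 2500 bases, and those without one, Hoxc6, Hoxc8 and Hoxc9, belong to cluster c too.

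**Figure D5:**
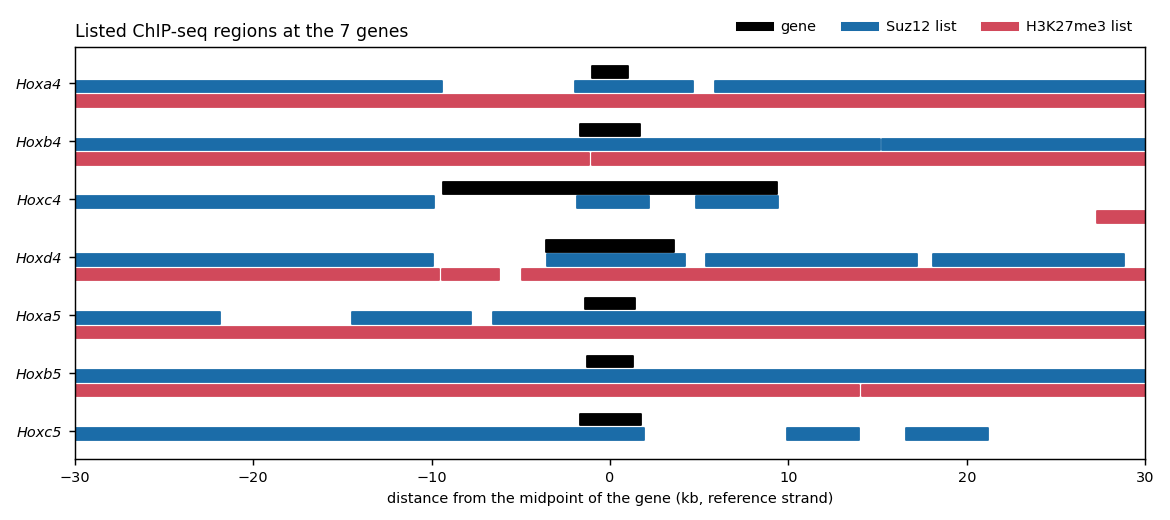
Listed Suz12 (blue) and H3K27me3 (red) regions around the 7 genes (black), by distance in kb from the midpoint of each gene on the reference strand (horizontal axis). Bars end at the edge of the window; Hoxc4 and Hoxc5 have Suz12 regions over the gene and no H3K27me3 region there.

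The other Hox genes give the setting of these values. In the authors' deposited table of ESC KO against WT, 27 of the 32 other Hox genes were called higher and none lower. In NP KO against WT, of the 8 genes of groups 1 to 3, 6 were called lower and 0 higher in the authors' deposited table, and of the 7 in groups 4 and 5 all were lower. Of the 8 genes of groups 6 to 8, 5 were called lower and 1 higher in the authors' deposited table, and of the 16 genes of groups 9 to 13, 13 were called higher and 1 lower. With CSex4 in NP, 2 of the 32 other Hox genes were called lower in the authors' deposited table, Hoxb6 (log2 fold change -1.73 ± 0.42, adjusted p = 0.00168) and Hoxb2 (-1.23 ± 0.40, adjusted p = 0.0434). The median log2 fold change there was -1.36 over the 7 genes, -0.999 over groups 1 to 3, -0.78 over groups 6 to 8 and 1.14 over groups 9 to 13, where 8 of 16 genes have an adjusted p, in the authors' deposited table. Over all genes with an adjusted p it was -0.04 in the authors' deposited table. The medians of the neighbouring groups were thus below 0 as well, and no difference between the groups was tested. The split by position was made with the values known.

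Hox proteins bind DNA with cofactors of the TALE class (Pbx, Meis and Pknox proteins), and of 9 such genes 3 were called lower in NP CSex4 in the authors' deposited table, among them Pknox2 (-1.44 ± 0.40, adjusted p = 0.0084) and Meis2 (-1.05 ± 0.31, adjusted p = 0.0178). In NP KO 3 of the 9 were lower, with Pbx3 at -2.12 ± 0.39 (adjusted p = 1.14e-06) in the authors' deposited table. In ESC KO 3 were higher, with Meis2 at 3.21 ± 0.29 (adjusted p = 2e-25) there, in the authors' deposited table. Among 17 genes upstream of Hox clusters, 2 were called lower in NP CSex4 and in NP KO alike, while 1 was called higher in CSex4 and 2 in the KO. Those lower were the retinoic acid binding proteins Crabp1 and Crabp2, at -3.42 ± 0.35 (adjusted p = 2.68e-20) and -2.55 ± 0.36 (adjusted p = 7.66e-11) in the KO in the authors' deposited table. Cdx2, a homeobox activator of Hox genes, was higher in NP KO (2.16 ± 0.45, adjusted p = 3.38e-05) in the authors' deposited table, as was Aldh1a2, which makes retinoic acid (1.69 ± 0.49, adjusted p = 0.00489). Cdx1, a relative of Cdx2, was higher in NP CSex4 (1.39 ± 0.37, adjusted p = 0.00608) in the authors' deposited table. Of 14 non-coding transcripts inside the clusters, 8 with an adjusted p, 6 were called lower and 1 higher in NP KO, led by Hoxaas2 (-5.62 ± 0.54, adjusted p = 1.22e-22) in the authors' deposited table. Of all genes tested, 1.45% were called lower in NP CSex4, 9.85% lower in NP KO and 11.0% higher in ESC KO. Called higher were 636 of 15603 genes in NP CSex4 and 1897 of 16410 in NP KO. The 2 upstream genes called lower and the 2 called higher in NP KO, of 16 with an adjusted p, were near those shares.

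Over the 13 deposited log2 fold changes, the genes most like each of the 7 were sought among 15159 genes. These had a mean of at least 10 normalised reads in at least 7 comparisons. Hoxa4, Hoxb5 and Hoxc5 were under that mean in every ESC comparison and could not be returned as a neighbour. NP has 6 comparisons, so a gene also had to reach that mean in ESC. Hoxd4 (14.5 and 28.5) and Hoxb4 (24.7 and 28.2) did so only with KO and KO-L3D, where they were high. Hoxc4 did so there and with KO-S3D (14.0). That these 3 could be returned thus depended on part of the pattern being matched. Comparisons share libraries, so the correlations are descriptions. Hoxd4 was the nearest to Hoxc5 (Pearson's r = 0.962) and to Hoxb4 (r = 0.944), and ranked 2 for Hoxc4 (r = 0.893). Among the genes searched, Hoxd4 itself was nearest to the neural transcription factor genes Pou3f2 and Irx3 (r = 0.949 for each). Its r of 0.962 with Hoxc5, which was not searched, was higher. Hoxb5 was nearest to Ntrk2 (r = 0.942), which encodes a neurotrophin receptor. Hoxa4, Hoxa5 and Hoxb5 had no other Hox gene among their nearest 3, in a search that left out Hoxa4, Hoxb5 and Hoxc5. Hoxa4 was nearest to Adgra3 (r = 0.88) and Hoxa5 to Myom1 (r = 0.914).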

How the data were processed

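The authors' deposited tables give, per the file headers, DESeq2 results for 2 groups each: a baseMean signal (mean of reads divided by size factors), log2 fold changes with SE, a score (the fold change over its SE), p-values and adjusted p-values. Their file names say paired. The region lists carry, per the file headers, an undefined DiffBind number between 0 and 1. The submitters' processing notes name Bowtie, TopHat, DESeq2 and DiffBind and the builds mm10 and dm3; versions and strandedness are not given in the sources used here. Genes were called at an adjusted p under 0.05 as deposited. Whole reads were solved jointly over the tables of a cell type from baseMean by lattice reduction (sympy 1.14.0): linked libraries agreed in 100.0% of low genes, others in at most 18.3%. In simulated data, 300 of 300 genes were recovered for each cell type. ESC genes above a baseMean of 7000 were not used. These reads served description only, with a pseudocount of 1 for log2 ratios. The library letters carry no replicate number, so whether numbers pair libraries was not checked. Differences between tables were tested as the difference over the root of the summed squared SEs (scipy 1.17.1), with Benjamini-Hochberg adjustment over genes with baseMean of at least 10. Named genes were the 7 members, Suz12, at most 2 rises and 2 falls per list, and the 3 nearest patterns. Members and lists were chosen with earlier results of these data known.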

Additional observations from a re-analysis of the deposited data

Results flagged for a closer look

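The effect of the knock-out differed between ESC and NP by the test of the difference itself for each of the 4 genes with a mean of at least 10 normalised reads in both tables. On the log2 scale, NP minus ESC, the difference was -5.76 for Hoxb4, -7.73 for Hoxc4, -9.94 for Hoxd4 and -5.31 for Hoxa5. All 3 ESC KO libraries were above all ESC WT libraries, and both NP KO libraries were below all 4 NP WT libraries, for each of the 4 genes. In ESC these genes reached the mean of 10 only through the KO libraries, so how many of the tested genes differed is not a result.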

How the results depend on the processing

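All 41 called fold changes kept their direction when computed without the replicate block from recovered reads, with a largest shift of 1.56 on the log2 scale, for Hoxc5 in ESC KO (5.10 deposited, 3.53 unpaired). The 630 pseudocount and leave-one-out settings cover called and uncalled fold changes alike. None reversed a called direction, and 104 moved by more than 1 SE. Uncalled fold changes did change sign. Hoxc4 in ESC KO-S3D went to -1.99 without the first KO-S3D library and to 4.005 without the second. Hoxa5 in ESC Deltaex4 went to -1.947 without the first Deltaex4 library and to 3.202 without the second. The count of genes that differed between NP CSex4 and NP Deltaex4 fell from 6 to 2 at an adjusted p under 0.01, because the threshold is stricter. The other counts stayed within 1.5 times of their values: at 0.01, 4 genes were called in ESC KO, 2 in ESC KO-L3D and 4 in NP CSex4. The alternatives with all 4 NP WT libraries or without WT a were chosen after seeing the data. ESC levels of a few reads limit every ESC comparison here, and 4 of the 7 ESC tables give none of the 7 genes an adjusted p.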
